A study of Mus musculus with 6 samples.

Results

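The small leucine-rich proteoglycans are secreted matrix proteins, each built from a run of leucine-rich repeats that folds into a curved protein core. The 10 genes described were the rows whose symbol was Dcn, Bgn, Aspn, Lum, Fmod, Prelp, Omd, Ogn, Podn or Islr, each present once, among 19730 rows of an RNA-Seq table. They were taken by their symbols as members of this gene family. The libraries were made from mouse mesangial cells in primary culture, which in the kidney hold the capillary loops of the glomerulus together and can contract, with 3 Control libraries and 3 TGF-β1 libraries. TGF-β1 (transforming growth factor beta 1) is a secreted protein known for driving scarring, and the treated cells received it at 10 ng/ml for 72 h. All cells were of passages 3 to 6 and were kept in medium with 25.5 mM glucose and 20% serum, so the Control cells were also in high glucose. Whether the 3 libraries of a group came from separate cultures was not stated, and p-values then measure only the spread between these libraries, which may be technical.

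The protein core of these proteoglycans binds collagen fibrils and helps to set their width and spacing, and in most members it carries chondroitin, dermatan or keratan sulfate chains. Decorin and biglycan also bind growth factors, TGF-β among them, and cell surface receptors, and both are known in the kidney as matrix products of mesangial cells. By sequence and gene structure, Dcn, Bgn and Aspn form class I, Fmod, Lum, Prelp and Omd form class II, Ogn belongs to class III and Podn to class V. Islr (also called meflin) has leucine-rich repeats and an immunoglobulin-like domain and lies outside the classical classes.

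Values are FPKM, fragments per kilobase of transcript per M (mega) mapped fragments. They are per length and can be set side by side between genes where a row covers the whole gene. The FPKM steps of rarely sampled genes corresponded to 10.1 to 11.04 M fragments per library, with an assumed fragment length of 200 nt. Across genes, Pearson's r was 0.876 to 0.940 for libraries of 1 group and 0.818 to 0.853 for libraries of different groups. The replicate 2 libraries of both groups deviated from their group means together, with r = 0.232 over genes, while the highest r of a Control and a TGF-β1 library with different numbers was 0.117, and calls lost with replicates 1 and 3 alone are given beside the genes. The TGF-β1 libraries carried the known response, with Ctgf, a matricellular target of TGF-β, at 48.2 ± 19.4 FPKM (SD, n = 3) in Control cells and 1154 ± 152 (SD, n = 3) in treated cells. Of the mesangial markers, Itga8, Des and Thy1 were under 1 FPKM in every library, and the summed level of the 8 markers, 1197 to 1374 in Control and 3830 to 4499 with TGF-β1, was mostly that of the smooth muscle actin gene Acta2 (997 ± 89.7 and 3887 ± 348 FPKM). Of the 5 tested mesangial markers 2 rose, 2 fell (Pdgfrb and Fhl2, both lost with replicates 1 and 3 alone, at adjusted p = 0.164 and 0.0817 by limma) and 1 did not pass, with a median log2 change of -0.33. All 5 endothelial markers in the table were under 1 FPKM in every library.

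Decorin and biglycan are the closest relatives among the 10 genes, and their expression moved in opposite directions. Their coding sequences, taken from the mm9 transcripts of GENCODE M1, were identical at 724 of 1192 aligned positions (60.74%), ahead of the next pair, Bgn and Aspn, at 53.14%. The most similar stretch of 30 bases lies in exon 7 of 8 of both genes and encodes part of a leucine-rich repeat. It is shown because the opposite changes rest on reads being assigned to the right gene. Capitals mark the 2 bases that differ.
Dcn: TctgagggaactCcacttggacaacaacaa
Bgn: CctgagggaactTcacttggacaacaacaa
The Dcn stretch is at chr10:96976296-96976325 and the Bgn stretch at chrX:70738602-70738631, both on the plus strand of mm9. The longest run of bases that the 2 coding sequences shared without a difference was 17 nt, and over all pairs of the 10 genes it was 19 nt.

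With TGF-β1, 1 of the 10 genes rose (Bgn), 7 fell (Dcn, Islr, Omd, Podn, Ogn, Lum and Prelp) and 2 did not pass the test (Fmod and Aspn). The test was limma on log2(FPKM + 1) at an adjusted p under 0.05, and all log2 changes are on that scale. In the fit that took in every row, 30.5% of all 19730 rows passed, 14.6% upwards and 16.0% downwards. The median log2 change of the 10 genes in that fit was -0.72, beside -0.03 over all rows. The values of the 2 groups did not overlap in 8 of the 10 genes, 1 higher and 7 lower with TGF-β1, whereas this was so in 44.1% of all rows, 20.5% higher and 23.6% lower. Among the 11898 rows with a mean of at least 1 FPKM, 48.1% passed, 24.5% upwards and 23.6% downwards. Of the 10 genes, 6 reached that mean (Dcn, Bgn, Ogn, Islr, Omd and Podn). Islr, Omd and Podn did so only through their Control level, so a count over those 6 is not used. The p-values of those 6 are adjusted over the 11898 rows, and those of the other 4 genes over all 19730. In bulk RNA, fewer cells of a type and less RNA per cell cannot be told apart.

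**Figure D1:**
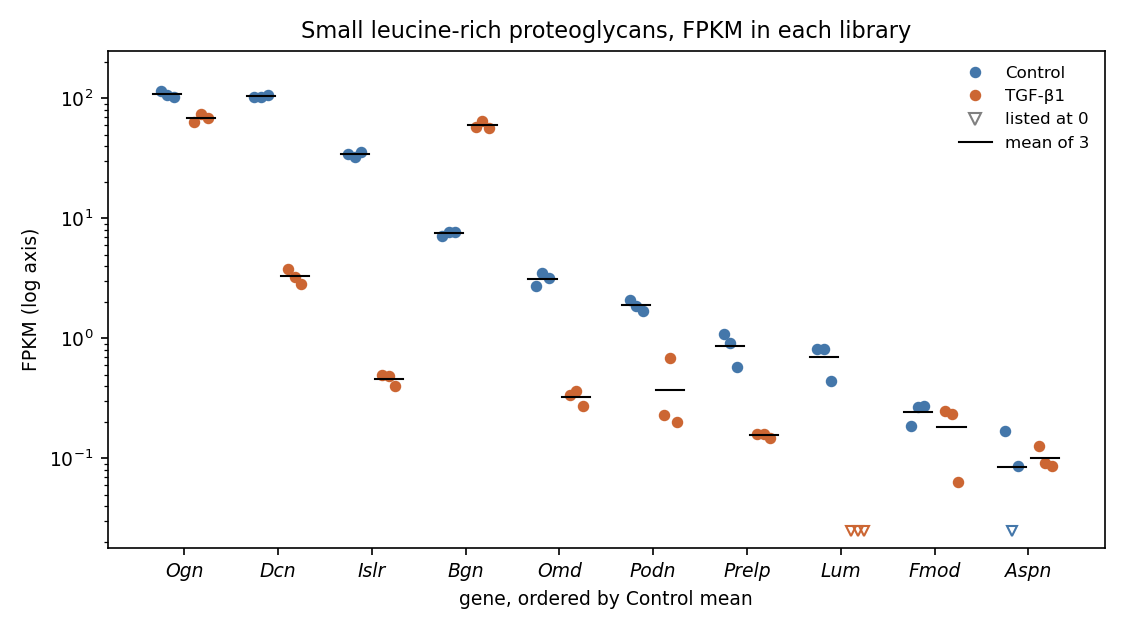
FPKM of each gene in each library on a log axis, with Control in blue, TGF-β1 in orange, a bar at the mean of 3 libraries and triangles for libraries listed at 0. Dcn drops from 103 to 106 FPKM in Control to 2.84 to 3.79 with TGF-β1, while Bgn climbs from 7.18 to 7.75 up to 56.8 to 65.3.

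Decorin, the class I proteoglycan that carries a single chondroitin or dermatan sulfate chain, coats collagen fibrils and binds TGF-β, was among the most abundant of the 10 transcripts in Control cells. Dcn (chr10:96942245-96980777, plus strand, mm9) measured 104, 103 and 106 FPKM in Control replicates 1 to 3 and 3.79, 3.27 and 2.84 FPKM in TGF-β1 replicates 1 to 3. Every TGF-β1 library was far below every Control library, and the spread within groups was small beside the gap. The mean fell from 104 ± 1.92 to 3.30 ± 0.472 FPKM (SD, n = 3 each), 31.6-fold lower, a change of -4.62 on the log2(FPKM + 1) scale (SE 0.0980, 95% interval -4.86 to -4.38, adjusted p = 2.69e-06 by limma). This was the 8th largest fall among the tested rows of protein-coding genes with a transcript of at least 300 nt. Of all 11898 tested rows, 0.269% passed with a log2 change of 4 or more in either direction. Counted over the 15913 rows of protein-coding genes with a transcript of at least 300 nt, Dcn went from rank 820 by mean FPKM in Control to rank 8894 with TGF-β1.

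Biglycan, the other abundant member of class I, usually carries more than 1 chain and is known as a ligand of Toll-like receptors when released from the matrix. Bgn (chrX:70728941-70741272, plus strand, mm9) measured 7.18, 7.65 and 7.75 FPKM in Control and 57.3, 65.3 and 56.8 FPKM with TGF-β1. The lowest TGF-β1 library was well above the highest Control library. The mean rose from 7.53 ± 0.306 to 59.8 ± 4.75 FPKM, 7.94-fold higher. The change was 2.83 on the log2(FPKM + 1) scale (SE 0.0854, 95% interval 2.63 to 3.04, adjusted p = 7.84e-06 by limma). This was the 47th largest rise among the tested rows of protein-coding genes. The rank of Bgn by mean FPKM moved from 7182 to 1642. The row carries the identifier of an 828 nt processed transcript, 1 of 7 annotated for the gene, and whether the value covers the gene or only that transcript was not stated.

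By the values of their rows, Dcn and Bgn thus exchanged places. If the Bgn row holds only its named transcript, the level of the gene, and so its ratio to Dcn, was not measured. The ratio of Dcn to Bgn FPKM was 13.9 ± 0.519 in Control, with a range of 13.4 to 14.4, and 0.0554 ± 0.00922 with TGF-β1, with a range of 0.05002 to 0.0660. Read the other way, Bgn exceeded Dcn 18.4-fold (SD 2.79) in the treated cells. Asporin, the third class I gene, has a run of aspartates and lacks the usual chain attachment site. Aspn (chr13:49639812-49662926, plus strand, mm9) measured 0.168, 0 and 0.0864 FPKM in Control and 0.127, 0.0921 and 0.0861 FPKM with TGF-β1, about 4 fragments at most in any library. No change was detectable at this depth (log2 change 0.025, 95% interval -0.13 to 0.18, limma adjusted p = 0.799), and with replicates 1 and 3 alone the sign turned, at -0.026.

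The class II genes were all lowly expressed, and 3 of the 4 fell. Osteomodulin, a keratan sulfate proteoglycan of mineralised tissue, was the highest of them. Omd (chr13:49678135-49687978, plus strand, mm9) measured 2.72, 3.53 and 3.21 FPKM in Control and 0.336, 0.364 and 0.272 FPKM with TGF-β1. The treated values rest on about 4 to 5 fragments per library, against 40.8 to 52.9 in Control. The mean was 3.16 ± 0.407 and then 0.324 ± 0.0472 FPKM, 9.74-fold lower (log2 change -1.65, SE 0.126, limma adjusted p = 0.000175). Because 1 is added before the logarithm, the log2 change understates the fold of genes at this level.

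Lumican organises collagen fibrils in the cornea and skin. Lum (chr10:97028135-97035337, plus strand, mm9) measured 0.819, 0.820 and 0.445 FPKM in Control, some 9 to 17 fragments, and was listed at 0 in all 3 TGF-β1 libraries. In those libraries 3 fragments, the limit that a count of 0 allows, would have been 0.146 to 0.158 FPKM, counting error only, which lies below every Control value. On the log2(FPKM + 1) scale the change was -0.75 (SE 0.102, 95% interval -1.002 to -0.50, limma adjusted p = 0.00303), and a fold against values of 0 is not given.

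Prelp, which encodes a proteoglycan with an arginine- and proline-rich start that binds heparan sulfate, measured 1.10, 0.924 and 0.580 FPKM in Control and 0.160, 0.159 and 0.147 FPKM with TGF-β1. The gene (chr1:135806881-135817991, minus strand, mm9) overlaps an annotated gene on the opposite strand, Gm15851, and strand use in the FPKM estimate was not stated. The mean was 0.868 ± 0.264 and 0.155 ± 0.00722 FPKM, 5.58-fold lower, a change of -0.68 on the log2(FPKM + 1) scale (SE 0.114, adjusted p = 0.00660 by limma). With replicates 1 and 3 alone, the calls of Prelp and Lum were lost, at adjusted p = 0.105 and 0.0694, and 6 of the 10 genes remained called.

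Fibromodulin shares its collagen binding with lumican. Fmod (chr1:135933831-135944854, plus strand, mm9) measured 0.186, 0.268 and 0.276 FPKM in Control and 0.250, 0.237 and 0.0633 FPKM with TGF-β1. The groups overlapped, 2 of the 3 treated libraries lying within the Control range, and the log2 change of -0.07 did not pass (95% interval -0.27 to 0.12, limma adjusted p = 0.526). These values rest on about 2 to 9 fragments, and with quantile normalization the sign turned, at 0.032.

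Osteoglycin (mimecan), the class III gene, was the most abundant of the 10 by mean in both groups. Ogn (chr13:49703440-49719869, plus strand, mm9) measured 116, 108 and 103 FPKM in Control and 64.3, 73.8 and 69.0 FPKM with TGF-β1. All treated libraries were below all Control libraries, but by far less than for Dcn. The mean fell from 109 ± 6.88 to 69.0 ± 4.76 FPKM, 1.58-fold lower, a change of -0.65 on the log2(FPKM + 1) scale (SE 0.0881, 95% interval -0.86 to -0.44, adjusted p = 0.00159 by limma). The fall ranked 1526th among the tested rows of protein-coding genes. In Control, Ogn and Dcn were near equal, with an Ogn to Dcn ratio of 1.05 ± 0.0785 and overlapping libraries, and with TGF-β1 the ratio was 21.3 ± 3.82.

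Podocan, the class V gene, encodes a collagen-binding protein first described in glomeruli. Podn (chr4:107687396-107704942, minus strand, mm9) measured 2.08, 1.88 and 1.70 FPKM in Control and 0.232, 0.683 and 0.202 FPKM with TGF-β1. TGF-β1 replicate 2 was the high library of its group, which had a coefficient of variation of 72.4%, and it still lay below all Control libraries. The mean was 1.89 ± 0.193 and 0.372 ± 0.269 FPKM, 5.07-fold lower, a change of -1.09 on the log2(FPKM + 1) scale (SE 0.173, 95% interval -1.51 to -0.67, adjusted p = 0.00310 by limma).

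Islr, known as a marker of undifferentiated mesenchymal and stromal cells, showed the largest fold of the 10 genes among those detected in both groups. Islr (chr9:58004080-58006949, minus strand, mm9) measured 34.5, 32.5 and 36.01 FPKM in Control and 0.495, 0.483 and 0.402 FPKM with TGF-β1. From 660 to 714 fragments per Control library, it went to about 8 to 10 per treated library. The mean fell from 34.3 ± 1.78 to 0.460 ± 0.0511 FPKM, 74.6-fold lower, a change of -4.60 on the log2(FPKM + 1) scale (SE 0.0847, 95% interval -4.80 to -4.39, adjusted p = 1.61e-06 by limma). Its fall was the 9th largest among the tested rows of protein-coding genes, next to that of Dcn. Its rank by mean FPKM went from 2540 to 11374.

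**Figure D2:**
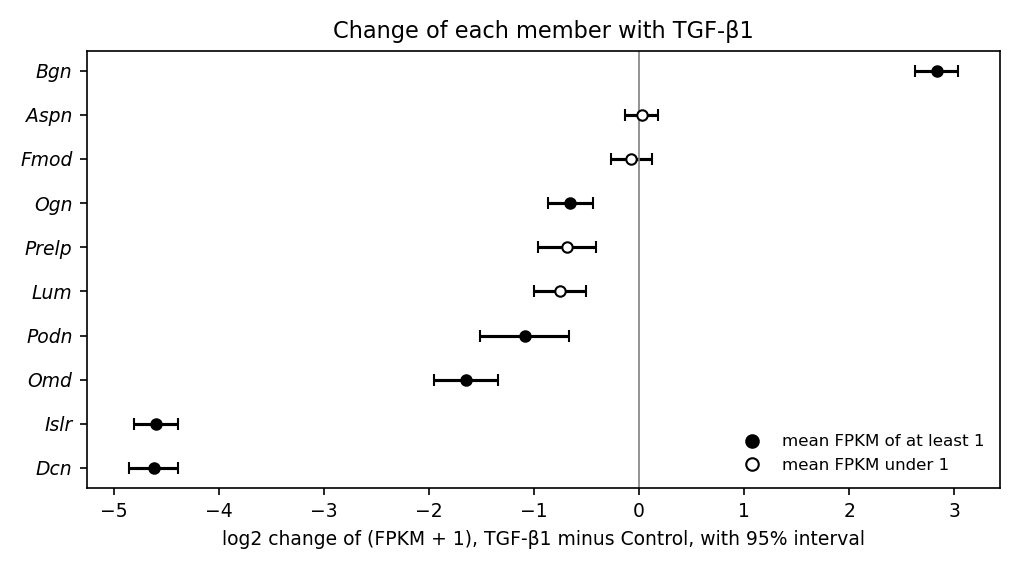
Log2 change of FPKM + 1 from Control to TGF-β1 for each gene, with 95% intervals from limma, filled where the mean over 6 libraries is at least 1 FPKM and open where it is under 1. Bgn at 2.83 is the 1 gene whose interval lies above 0, the intervals of Aspn and Fmod span 0, and Islr and Dcn lie lowest at -4.60 and -4.62.

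The genes whose values over the 6 libraries were most like those of Dcn were sought by the Euclidean distance between log2(FPKM + 1) values centred on the Control mean. Of the tested rows, Islr was the nearest, at a distance of 0.181. Next came Cldn2, a tight junction claudin, at 0.440, with 32.5 ± 0.831 FPKM in Control and 0.579 ± 0.0251 with TGF-β1. Sned1, an extracellular matrix glycoprotein, followed at 0.676, with 21.7 ± 2.86 and 0.142 ± 0.0631 FPKM. The distance is a description over 6 libraries, with no test, and it depends on the 1 added before the logarithm. By mean FPKM the falls differed more, at 31.6-fold for Dcn, 74.6-fold for Islr, 56.2-fold for Cldn2 and 152-fold for Sned1.

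The order of levels by mean in Control was Ogn, Dcn, Islr, Bgn, Omd, Podn, Prelp, Lum, Fmod and Aspn. Neighbours in that order were apart in every library except Ogn and Dcn, and Prelp and Lum, whose values overlapped. With TGF-β1 the order was Ogn, Bgn, Dcn, Islr, Podn, Omd, Fmod, Prelp, Aspn and Lum. Here Ogn and Bgn overlapped, as did Islr with Podn, Podn with Omd, and Fmod with Prelp. The place of Bgn in both orders is that of its row, whose coverage of the gene was not stated. The study took 3 FPKM as its limit for an expressed gene. By that limit Ogn, Dcn, Islr and Bgn were expressed in all Control libraries and Omd in 2 of 3, while with TGF-β1 only Ogn and Bgn were expressed in all 3 and Dcn in 2 of 3.

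Summed over the 10 genes, FPKM was 269, 258 and 259 in the Control libraries and 127, 144 and 129.8 in the TGF-β1 libraries. The means were 262 ± 5.93 and 134 ± 9.31, and the groups did not overlap. Without Bgn, the sum was 255 ± 6.22 in Control and 73.9 ± 4.77 with TGF-β1. The make-up differed more than the sum, with the Bgn row taken as the level of the gene. In Control, Ogn made up 41.6% ± 1.83, Dcn 39.8% ± 1.24, Islr 13.1% ± 0.691 and Bgn 2.88% ± 0.178 of the summed FPKM. With TGF-β1, Ogn made up 51.6% ± 1.36, Bgn 44.7% ± 0.839, Dcn 2.48% ± 0.437 and Islr 0.345% ± 0.0413. The share of Ogn was thus higher although its level fell.

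**Figure D3:**
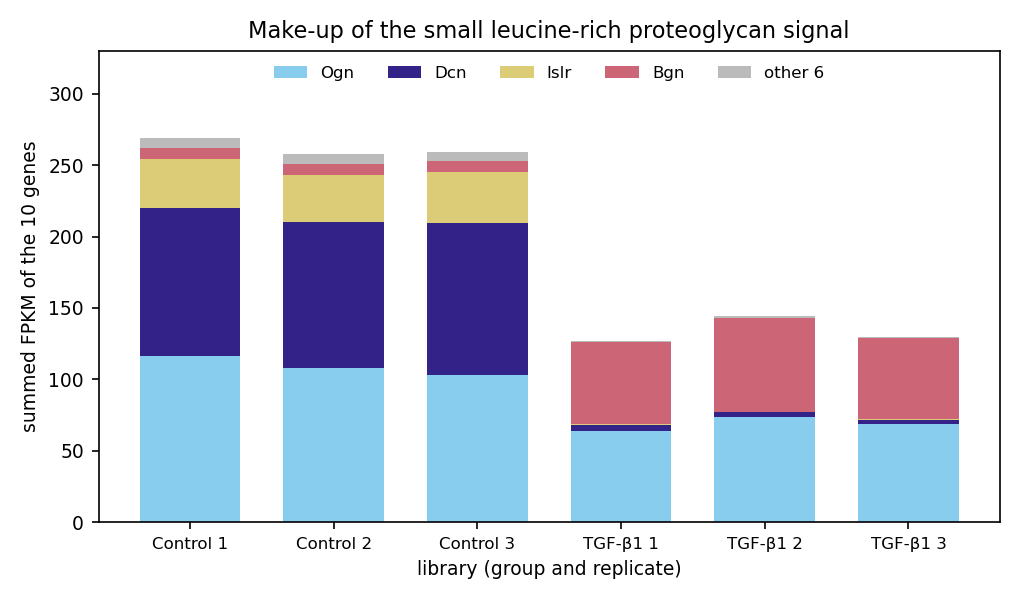
Summed FPKM of the 10 genes in each library, stacked by Ogn, Dcn, Islr, Bgn and the other 6 genes. The Control bars reach 258 to 269 and consist mostly of Ogn and Dcn, and the TGF-β1 bars reach 127 to 144 and consist mostly of Ogn and Bgn.

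Most of these genes stand in small groups on the chromosomes, and neighbours did not share 1 size of change. On chromosome 10, Dcn and Lum are 47.4 kb apart with no protein-coding gene between them, and both fell, Dcn from 104 FPKM and Lum from 0.695 FPKM. On chromosome 13, Aspn, Omd and Ogn follow each other at gaps of 15.2 and 15.5 kb. Of this trio, Ogn was abundant and fell 1.58-fold, Omd was lowly expressed and was 9.74-fold lower, and Aspn was near 0 in both groups. The ratio of Ogn to Omd FPKM was 35.1 ± 6.67 in Control and 216 ± 33.2 with TGF-β1. All 3 lie within or overlap Cenpp, a centromere protein gene on the opposite strand, which measured 1.09 ± 0.513 FPKM in Control and 1.37 ± 0.302 with TGF-β1, with overlapping libraries. Reads of Cenpp and of the trio cannot be told apart where they overlap, as strand use was not stated.

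On chromosome 1, Prelp and Fmod are 115.8 kb apart and Optc, the opticin gene, a class III relative, lies 2.3 kb from Prelp. Optc measured 0, 0.184 and 0.110 FPKM in Control and 0.862, 0.629 and 0.752 FPKM with TGF-β1. It was higher in every treated library, while its neighbour Prelp was lower in every one. The change of Optc passed in the fit over all rows (log2 change 0.67, SE 0.0899, limma adjusted p = 0.00291). Bgn, Podn and Islr stand away from the other members, on chromosomes X, 4 and 9.

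**Figure D4:**
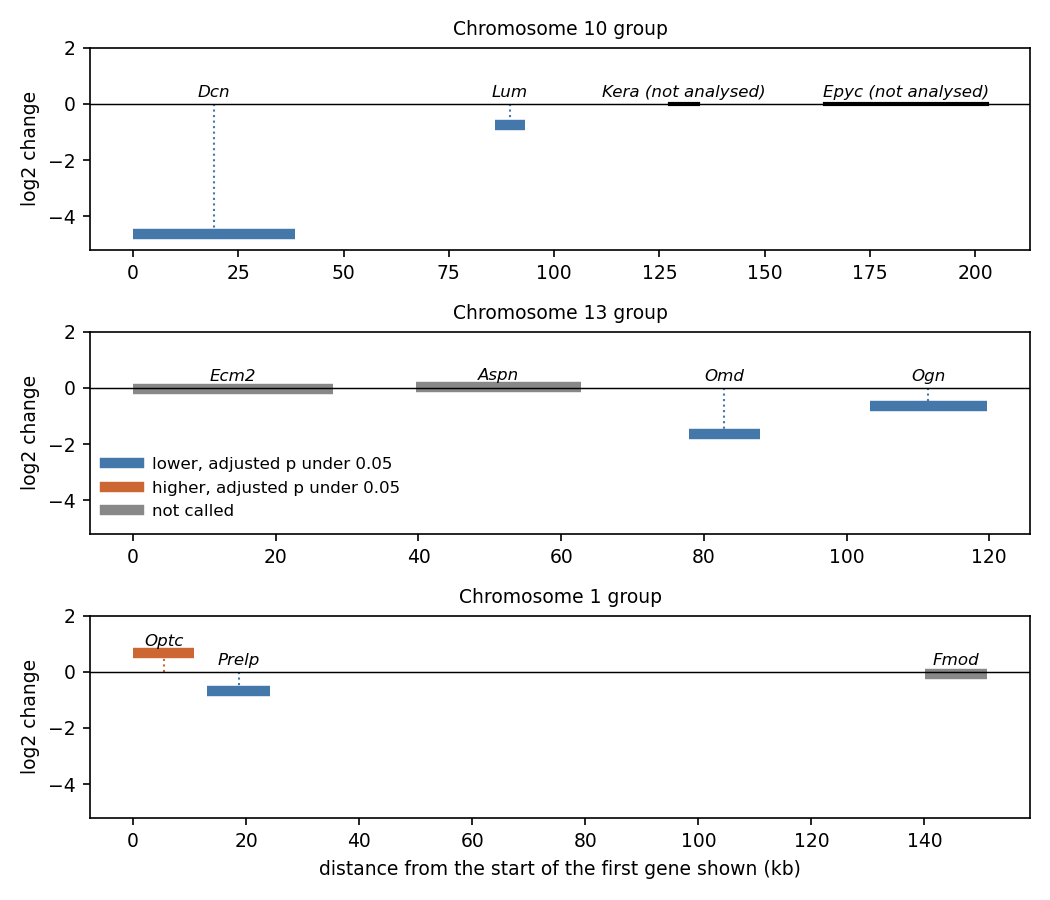
Log2 change of FPKM + 1 (vertical axis) against distance in kb from the start of the first gene shown, for the groups on chromosomes 10, 13 and 1, with each gene drawn as a segment at its log2 change. Dcn at -4.62 and Lum at -0.75 both lie below 0, Omd and Ogn lie below 0 beside Aspn at 0.02, and Optc at 0.67 lies above 0 beside Prelp at -0.68 (Kera and Epyc were not analysed here and are drawn on the axis).

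Of the other leucine-rich repeat matrix genes on a list of 10, 8 were in the table and 2 had a mean of at least 1 FPKM. In the fit over all rows, 2 of the 8 passed, both upwards (Optc and Podnl1). Tsku, the tsukushi gene, measured 10.9 ± 0.696 FPKM in Control and 13.2 ± 0.492 with TGF-β1 and rose by 0.25 on the log2 scale (limma adjusted p = 0.0420), whereas Chadl, a chondroadherin-like gene, measured 1.997 ± 0.960 and 1.23 ± 0.420 FPKM and did not pass (limma adjusted p = 0.286). The call of Tsku was lost without the filter on low values (adjusted p = 0.0629) and with replicates 1 and 3 alone (adjusted p = 0.114). Under the filter, Podnl1, the closest relative of podocan, measured 0.462 ± 0.207 and 1.27 ± 0.421 FPKM, opposite in direction to Podn (log2 change 0.62, limma adjusted p = 0.0421 in the fit over all rows), and with replicates 1 and 3 alone the adjusted p was 0.160. Islr2, 37.2 kb from Islr, was near 0 in both groups, at 0.116 ± 0.0536 and 0.0339 ± 0.0141 FPKM, and did not pass (log2 change -0.11, limma adjusted p = 0.144). Nyx, Chad and Ecm2 were at 0.147 FPKM or less in both groups and did not pass either, with limma adjusted p of 0.226, 0.497 and 0.766.

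Promoter sequences from RefSeq (GRCm38.p6), 250 bases before to 50 after the start of each gene, were found for 8 of the 10 genes, all but Dcn and Lum. The motif CAGAC, the core that SMAD proteins of the TGF-β pathway bind, was searched on both strands and was present in Fmod, Prelp, Podn and Islr. It was absent from Aspn, Omd, Ogn and Bgn. Of all 32851 promoters in the table, 49.6% held it. One stretch is shown for Islr, the member with the largest fold, with the motif in capitals as it reads on the opposite strand (GTCTG).
Islr: acaaggggccttGTCTGgaccagggaagca
The stretch is at chr9:58158651-58158680 on the minus strand of GRCm38.p6, and the match is a description and not a binding site. TATAAA, the sequence of the TATA box, was found on both strands in the Aspn and Ogn windows, against 13.6% of all promoters. Its offsets from the gene start were -207 and -178 in Aspn and -227 and -229 in Ogn, where the matches on the opposite strands share bases. Whether these matches act as TATA boxes was not tested. The AP-1 motif TGAGTCA was in none of the 8 genes and in 5.2% of all promoters.

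Before secretion, the core proteins receive their chains in the Golgi from shared enzymes, and more of these genes rose than fell. Of 27 tested genes for chain synthesis and sulfate supply, 14 rose, 4 fell and 9 did not pass (66.7% called, beside 48.1% of all tested rows), with a median log2 change of 0.48 beside -0.02 over all tested rows. Of the 5 tested genes that build the linker between protein and chain, 2 rose (B4galt7 and Fam20b, the xylose kinase) and 3 did not pass, so that 40% were called, below the 48.1% of all tested rows. B4galt7, the galactosyltransferase that adds the first galactose of the linker, measured 8.55 ± 0.786 FPKM in Control and 17.1 ± 1.10 with TGF-β1 (0.92 in log2, adjusted p = 0.000544 by limma). Of the 12 tested genes for the chondroitin and dermatan sulfate chains that Dcn and Bgn carry, 8 rose, 2 fell (Chst15 and Dsel) and 2 did not pass. Csgalnact1, which starts the chondroitin chain, rose from 2.23 ± 0.235 to 14.01 ± 1.02 FPKM (2.22 in log2, adjusted p = 2.66e-05 by limma). Chst15, a sulfotransferase that adds a further sulfate to chondroitin sulfate, fell from 6.51 ± 0.630 to 2.29 ± 0.105 FPKM (-1.19 in log2, adjusted p = 0.000247 by limma). Dsel, an epimerase homologue, measured 8.15 ± 0.731 and 6.37 ± 0.122 FPKM, and its call (adjusted p = 0.0319 by limma) was lost without the filter on low values, at 0.0603, and with replicates 1 and 3 alone, at 0.0538.

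The genes for keratan sulfate, a chain of some class II proteins, were split, with 2 up (B4galt1 and Chst2) and 2 down (Chst1 and B4galt4) of 4 tested. B4galt1, a galactosyltransferase that also acts on other glycans, rose from 15.7 ± 1.65 to 50.7 ± 5.27 FPKM (1.63 in log2, adjusted p = 0.000125 by limma). Chst1, the keratan sulfate sulfotransferase, fell from 3.90 ± 0.0709 to 1.33 ± 0.287 FPKM (-1.08 in log2, adjusted p = 0.000832 by limma). Of 6 tested genes that supply sulfate, 2 rose (Papss2 and the sulfate transporter gene Slc26a2) and 4 did not pass (33.3% called), and Papss2, a synthase of the sulfate donor, rose from 1.92 ± 0.298 to 4.13 ± 0.578 FPKM (0.81 in log2, adjusted p = 0.00341 by limma). The call of Slc26a2 was lost with replicates 1 and 3 alone (adjusted p = 0.0579).

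Of 11 tested collagen and elastic fibre genes whose products these proteoglycans bind, 7 rose, 2 fell and 2 did not pass. So 81.8% were called, beside 48.1% of all tested rows, with a median log2 change of 1.53 beside -0.02. Col5a3, Col1a2 and Col6a3 reached a mean of 1 FPKM only through their TGF-β1 level. In the fit over all rows, 7 of 14 rose, 2 fell and 5 did not pass, with a median of 0.61 beside -0.03. Col5a3, a chain of the collagen V found inside fibrils, rose from 0.761 ± 0.169 to 16.5 ± 1.35 FPKM (3.32 in log2, adjusted p = 1.13e-05 by limma), and Col1a1, the main chain of collagen I, rose from 231 ± 6.10 to 953 ± 37.4 FPKM (2.04 in log2, adjusted p = 1.72e-05 by limma). Col6a2, of the beaded filament collagen VI to which decorin and biglycan bind, fell from 14.3 ± 1.53 to 1.89 ± 0.193 FPKM (-2.40 in log2, adjusted p = 2.72e-05 by limma). Col6a1, its partner chain, fell from 93.4 ± 5.85 to 32.4 ± 1.39 FPKM (-1.50 in log2, adjusted p = 4.84e-05 by limma). Col6a3, another collagen VI chain, was higher in every treated library, at 0.521 ± 0.196 and 1.52 ± 0.903 FPKM. Its change did not pass (0.68 in log2, adjusted p = 0.0790 by limma).

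Of 9 tested genes for proteases and their helpers that act on these proteins, 6 rose and 3 fell (Adamts1, Adamts5 and Pcolce). So 100% were called, beside 48.1% of all tested rows. Tll1, among the 6, reached a mean of 1 FPKM only through its TGF-β1 level (0.309 ± 0.0689 FPKM in Control and 3.72 ± 0.505 with TGF-β1). In the fit over all rows, 7 of 13 rose, 3 fell and 3 did not pass, where 30.5% of all rows passed. Htra1, a serine protease that cleaves decorin and biglycan, rose from 16.8 ± 2.98 to 80.9 ± 5.40 FPKM (2.21 in log2, adjusted p = 7.66e-05 by limma). Adamts1, a metalloprotease of large proteoglycans, fell from 147 ± 14.5 to 8.56 ± 0.161 FPKM (-3.95 in log2, adjusted p = 3.82e-06 by limma). Pcolce, the enhancer of the protease that trims procollagens, fell from 1120 ± 92.4 to 283 ± 28.0 FPKM (-1.98 in log2, adjusted p = 6.06e-05 by limma). Of 12 tested receptors, 2 rose (Itgb1 and Cd44), 5 fell (Cd14, Erbb2, Met, P2rx4 and Egfr) and 5 did not pass, with a median log2 change of -0.29. The 58.3% called stand beside 48.1% of all tested rows, and the call of P2rx4 was lost with replicates 1 and 3 alone (adjusted p = 0.0567). Itgb1, the beta chain of collagen-binding integrins, rose from 259 ± 9.96 to 1026 ± 16.4 FPKM (1.98 in log2, adjusted p = 1.82e-05 by limma). Cd14, a coreceptor of the Toll-like receptors that biglycan binds, fell from 94.3 ± 13.6 to 7.71 ± 0.819 FPKM (-3.45 in log2, adjusted p = 1.72e-05 by limma). Of the 6 receptor tyrosine kinases on the list, Egfr, Erbb2 and Met fell, Igf1r did not pass (4.94 ± 1.05 and 5.17 ± 0.256 FPKM, adjusted p = 0.714 by limma), and Erbb4 and Kdr were near 0 in both groups. Egfr measured 30.8 ± 1.07 FPKM in Control and 21.4 ± 1.57 with TGF-β1 (-0.51 in log2, adjusted p = 0.00327 by limma). Met measured 12.996 ± 0.719 and 7.11 ± 0.466 FPKM (-0.79 in log2, adjusted p = 0.000665 by limma).

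Of the large proteoglycans, 2 of 10 in the table were tested. Vcan, the versican gene, measured 82.1 ± 2.33 FPKM in Control and 101.5 ± 11.6 with TGF-β1 and rose by 0.30 on the log2 scale (limma adjusted p = 0.0478), a call that was lost with replicates 1 and 3 alone (adjusted p = 0.112), without the filter (0.0585), without the trend (0.0580), under upper-quartile scaling (0.0976) and under quantile normalization (0.13 in log2, adjusted p = 0.325), and Hspg2, the perlecan gene, did not pass, at 50.9 ± 16.2 and 77.8 ± 48.3 FPKM with overlapping groups (adjusted p = 0.663). With replicates 1 and 3 alone, Hspg2 passed (0.81 in log2, adjusted p = 0.0127).

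**Figure D5:**
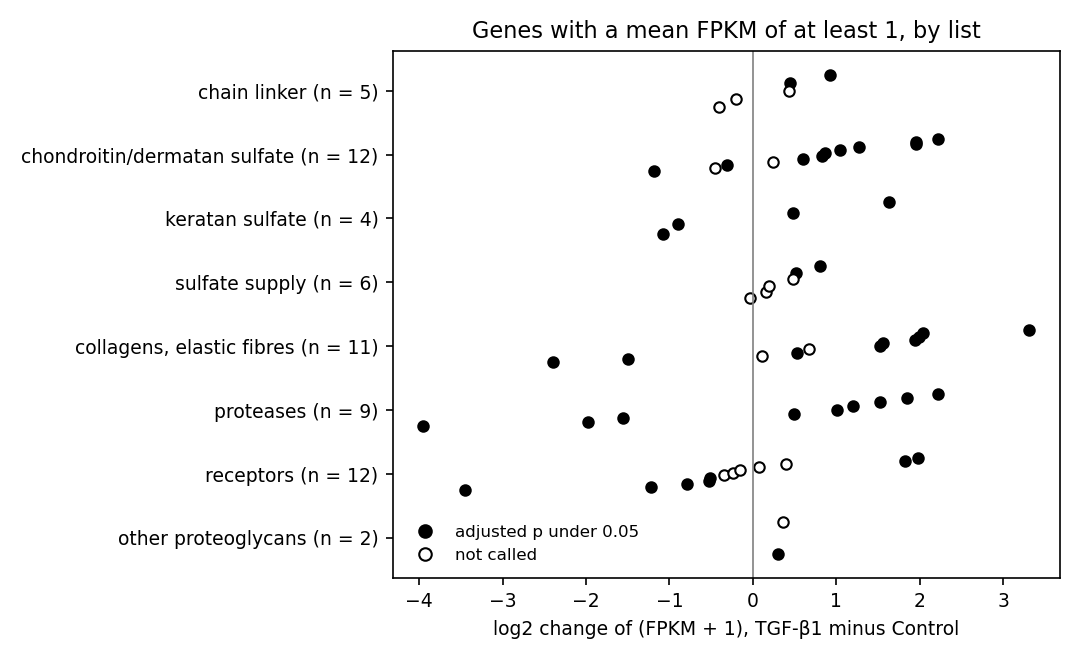
Log2 change of FPKM + 1 for each tested gene of the chain synthesis, partner and receptor lists, filled where the adjusted p is under 0.05. The chondroitin and dermatan sulfate genes lie mostly to the right of 0 (8 up, 2 down), the keratan sulfate genes are split (2 up, 2 down), and the receptors lie mostly to the left (2 up, 5 down).

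Markers of other cells moved with the treatment beside the falls of Dcn, Islr and the others. The summed FPKM of 6 fibroblast markers was 34.7 to 47.8 in Control and 9.61 to 13.02 with TGF-β1, with Pdgfra, Pi16 and Mfap5 under 1 FPKM in every library. For 8 epithelial markers it was 223 to 244 and then 65.0 to 68.9, with Cdh1 and Krt8 under 1 FPKM in every library. The sum was mostly Pax8, Cldn1 and Cldn2, which fell, while Cldn4, Krt18 and Krt19 rose from under 1 FPKM, so that the list did not move one way (3 up, 3 down and 2 not passing in the fit over all rows, median log2 change 0.0076). All 4 tested podocyte markers fell, with a median log2 change of -0.69. For 5 macrophage markers the summed FPKM was 87.0 to 114 and then 9.03 to 11.3, with Ptprc and Lyz2 under 1 FPKM in every library. That sum was mostly Cd14 (94.3 ± 13.6 FPKM in Control and 7.71 ± 0.819 with TGF-β1). In the fit over all rows, 2 of the 5 fell and 3 did not pass, with a median log2 change of -0.22. The part of such cells in the changes of the 10 genes was not tested.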

How the data were processed

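The values were deposited as FPKM. The authors had filtered reads by quality, mapped them to mm9 with TopHat (TopHat2 2.0.11 in the submitters' processing notes) and estimated FPKM with Cufflinks. Whether libraries were scaled to each other was not stated. Groups came from the sample labels. Each row carries 1 transcript identifier, and 19699 of 19730 were found in GENCODE M1.

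limma 3.58.1 in R 4.3.3 (lmFit, eBayes with trend, two-sided, Benjamini-Hochberg) was run on log2(FPKM + 1) over 11898 rows with a mean of at least 1 FPKM and again over all rows, and was tested on simulated data. The study's own test was a count model. Genes below the filter were read from the second fit. Depth came from 878 to 946 single-transcript rows per library under 0.6 FPKM, of which 99.3% to 99.8% were whole multiples of 1 fragment within 0.1 (25.5% to 28.2% when jittered). Alternatives comprised scaling, pseudocount, filter, trend, threshold, replicate block, batch term and left-out libraries. Named genes were the 10 members, all measured leucine-rich repeat relatives, and the called gene with the largest rise and fall in each list. Also named were treatment checks (Col1a1 and Ctgf) and the 3 nearest to Dcn, the member with the largest change on the log2(FPKM + 1) scale. Where 5 or fewer genes of a list rose or fell, the rest of them were named after their values were seen. So were Hspg2, Igf1r, Col6a3 and the marker genes with called changes. A treatment check and a marker gene are not reported here. Members and lists were chosen with earlier results of these data known. Python 3.11.15 with pandas 2.3.3 and biopython 1.88 was also used.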

Additional observations from a re-analysis of the deposited data

How the results depend on the processing

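The count of 8 changed members (1 up, 7 down) was 8 under every alternative except replicates 1 and 3 alone, where it was 6. Of 170 refits of single members, 164 kept direction and side of the threshold, 2 lost the call (Lum and Prelp, with replicates 1 and 3 alone) and 4 turned in sign, all for members that did not pass: Aspn with replicates 1 and 3 alone (-0.026) and over left-out libraries (-0.032 to 0.080), and Fmod under quantile normalization (0.032) and over left-out libraries (-0.12 to 0.000799). Ecm2 turned under quantile normalization (0.038) and over left-out libraries (-0.083 to 0.024), and Hspg2 over left-out libraries (-0.037 without TGF-β1 replicate 3 to 1.09 without TGF-β1 replicate 2, where it passed), and Igf1r (-0.029 to 0.21). At an adjusted p under 0.01, 3672 rows changed instead of 5721, 1727 instead of 2810 downwards, and with 1 library left out 4419 to 5446. The other leucine-rich repeat genes went from 1 changed gene (1 up) to 2 (2 up) without the filter and to 0 (0 up) under upper-quartile scaling, an adjusted p under 0.01, replicates 1 and 3 alone, the replicate block and a batch term for replicate 2, and ranged from 0 to 1 over left-out libraries. The calls of Tsku, Podnl1, Vcan and Dsel were each lost when any of 5 of the 6 libraries was left out. The cause was not tested. Whether the replicate numbers pair the libraries was not settled. Correlations of deviations were 0.0921, 0.232 and 0.0853 for equal numbers 1 to 3, and -0.194 to 0.117 for different numbers. With the replicate block 5391 rows changed (2728 up, 2663 down), with 8 members (1 up, 7 down). It gave 18 chain synthesis genes and 25 partner genes, against 18 and 26 without it. Of 862 refits of the other 49 genes refitted singly, 63 lost the call, 2 gained it and 5 turned in sign. Depth limits Aspn, Fmod, Lum, Omd, Prelp, Podn and Islr, each under 9 fragments in at least 1 library.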
